A study of Homo sapiens with 6 samples.

Results

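The intragenic HA regions away from H3K4me3 were regions of the merged HA list of ProMMP2-3xHA cells that had no region of either H3K4me3 list within 1 kb and whose centre lay inside the span of a protein coding gene on chromosomes 1 to 22 or X. They were therefore chosen by the HA and H3K4me3 peak calls themselves and by gene spans. This rule gave 475 regions, called members here, of the 7216 merged HA regions. The other regions on these chromosomes were 4213 intragenic and 1993 intergenic regions near H3K4me3 and 530 intergenic regions away from it, and 5 regions lay off the chromosomes used. Native ChIP-Seq (nChIP-Seq), in which nucleosomes released by micrococcal nuclease are immunoprecipitated without crosslinking, had been performed in U2OS cells, a human osteosarcoma line, grown to overconfluence. The ProMMP2-3xHA line was made by lentiviral transduction and stably carries pro-MMP-2 with 3xHA at its C-terminus under constitutive expression, and WT cells carry no tag. Of the 6 samples, 3 were HA replicates of the ProMMP2-3xHA line, 1 was H3K4me3 of the same line, and 1 each came from WT cells with the HA and the H3K4me3 antibody. No list of WT HA was used here, but the names of the HA replicate lists point to an HA control for their background. The study's text describes the 3 HA replicates as separate biological experiments.

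MMP-2 is a zinc-dependent protease that is best known for degrading extracellular matrix and that also cleaves the N-terminal tail of histone H3 in the nucleus. H3K4me3, trimethylated lysine 4 of histone H3, marks nucleosomes at active promoters, so regions away from it inside genes lie mostly in introns, in distal exons or at promoters without the mark. Introns hold many enhancers, where sequence-specific transcription factors bind short DNA words. Nuclear factor I (NFI) proteins form dimers that recognise an inverted repeat of TGGC separated by a short spacer, and AP-1 dimers of FOS and JUN proteins recognise TGACTCA.

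The HA libraries had similar recovered coverage, while their depth ratios to the control were 3.57, 2.81 and 3 in replicates 1, 2 and 3. The coverage recovered from the fold enrichments and p-values was 4.74, 4.34 and 4.23 HA fragments per base in replicates 1, 2 and 3, and the lists held 6401, 9193 and 8933 peaks. The H3K4me3 lists give no depth. H3K4me3 lay within 1 kb of the start of 4 of 5 genes fixed as mesenchymal and osteoblast lineage markers in both cell lines, COL1A2 being without it, and of 1 of 5 markers of other lineages, EPCAM.

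A single inverted repeat recurred in the strongest members, and it is shown here because the results turn on it. It consists of TGGC followed by GCCA with 5 bases between them, and is called the palindrome here because it reads the same on both strands. The first lines give 101 bases of GRCh37, plus strand, for the members that the naming rule selected by fold enrichment in all 3 replicates and whose whole region overlaps no annotated exon. Of the members that meet this, CPNE3 and 1 other are not shown. Capitals mark the 4-letter arms of the palindrome, or, in HIF3A, arms with 1 of the 8 letters different, and lower case alone means that neither was found within the search window at the summit of replicate 1.
HIF3A, chr19:46802383-46802483: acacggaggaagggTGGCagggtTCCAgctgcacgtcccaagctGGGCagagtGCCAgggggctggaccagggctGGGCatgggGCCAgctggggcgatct
ST3GAL3, chr1:44302316-44302416: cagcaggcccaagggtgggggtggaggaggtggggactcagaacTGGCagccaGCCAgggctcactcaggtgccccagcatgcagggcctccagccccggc
FBXO44, chr1:11717868-11717968: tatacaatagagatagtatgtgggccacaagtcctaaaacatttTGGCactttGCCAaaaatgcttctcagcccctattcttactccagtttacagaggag
SPEF2, chr5:35745907-35746007: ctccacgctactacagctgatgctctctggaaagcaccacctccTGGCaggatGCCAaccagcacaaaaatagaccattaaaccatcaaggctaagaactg
RRM2, chr2:10276429-10276529: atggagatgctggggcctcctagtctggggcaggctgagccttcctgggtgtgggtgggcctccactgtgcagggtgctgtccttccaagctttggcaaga
ANTXR1, chr2:69405379-69405479: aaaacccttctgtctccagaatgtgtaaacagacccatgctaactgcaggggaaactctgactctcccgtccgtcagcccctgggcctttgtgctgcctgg
The next lines give 61 bases for the 8 members with the highest mean fold enrichment in replicates 1 and 2 that had no peak of replicate 3 and whose region overlaps no exon. They were chosen after their values were seen, and capitals mark the same arms, with 1 letter different in SELENBP1.
SELENBP1, chr1:151344419-151344479: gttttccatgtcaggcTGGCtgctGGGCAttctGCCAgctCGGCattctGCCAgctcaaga
ANKRD33B, chr5:10601545-10601605: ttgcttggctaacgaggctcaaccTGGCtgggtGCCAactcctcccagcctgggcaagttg
SH3PXD2B, chr5:171864637-171864697: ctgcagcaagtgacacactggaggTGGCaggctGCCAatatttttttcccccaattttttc
TRERF1, chr6:42219884-42219944: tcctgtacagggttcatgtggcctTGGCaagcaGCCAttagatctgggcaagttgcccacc
TMEM217, chr6:37208119-37208179: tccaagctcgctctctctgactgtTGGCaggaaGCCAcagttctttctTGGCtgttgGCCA
CDH22, chr20:44884257-44884317: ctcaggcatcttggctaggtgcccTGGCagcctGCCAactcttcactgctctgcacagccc
EFNA4-EFNA3, chr1:155042696-155042756: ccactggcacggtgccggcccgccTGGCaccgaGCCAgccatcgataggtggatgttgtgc
FIBCD1, chr9:133804102-133804162: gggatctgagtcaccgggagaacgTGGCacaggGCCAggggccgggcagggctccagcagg
Each window was centred on the match nearest to the summit of replicate 1, or on the summit where none was found. The middle place of the arms was therefore set by the search. Of these 14 windows, 10 held the exact palindrome, 2 held only matches with 1 letter different and 2 held neither. These were among the strongest members, and the word was found by comparing strong with weak regions, so the count is a description. HIF3A and SELENBP1 each held 3 matches with 1 letter different, the closest of them 11 and 6 bp from the summit of replicate 1.

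The palindrome was present in 214 of the 475 members (45.1%, 95% exact interval 40.5 to 49.7) when the 300 bases at the centre of each region were searched. It was present in 6.95% of all merged HA regions and in 0.481% of the 4317528 tiles of 300 bases that fill protein coding gene spans. Intragenic regions near H3K4me3 held it in 1.09% (46 of 4213) and intergenic regions away from H3K4me3 in 39.2% (208 of 530). When whole regions were searched, the shares were 49.3% of members, 3.89% of intragenic regions near H3K4me3 and 43.4% of intergenic regions away from it. The sequence was therefore shared by HA regions away from H3K4me3 on both sides of gene borders. The word was found by comparing strong with weak regions away from H3K4me3 after the data were seen, so its shares are a description and carry no test. In most of the 214 members that held it, it occurred singly, with 207 holding 1 copy, 6 holding 2 copies and 1 holding at least 3.

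Of the spacings searched, only that of 5 bases was frequent in members. At the other 11 spacings from 0 to 11 bases, the same arms were found in 0.421% to 2.53% of members, against 45.1% at 5 bases. In intragenic regions near H3K4me3 the share at 5 bases, 1.09%, lay within the range of 0.831% to 1.5% of the other spacings. When 1 of the 8 arm letters was allowed to differ, 62.9% of members and 18.4% of the intragenic regions near H3K4me3 held a match.

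**Figure D1:**
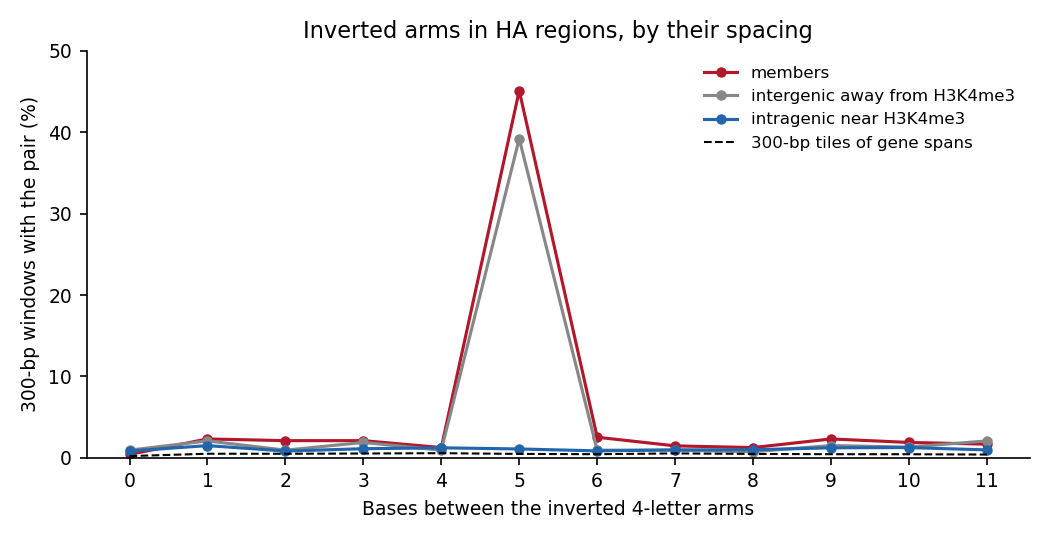
Share of 300-bp windows (y axis, percent) that hold the pair of inverted arms, by the number of bases between the arms (x axis), for members, both other classes of merged HA regions and all tiles of gene spans. Members reach 45.1% and intergenic regions away from H3K4me3 39.2% at 5 bases, and at every other spacing no class exceeds 2.53%.

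The letters beside the arms also differed between occupied and unoccupied copies. Protein coding gene spans held 20934 palindromes at least 1 kb from H3K4me3, of which 277 (1.32%) lay in a merged HA region. The share was 0.736% (96 of 13045) for copies without a T before TGGC or an A after GCCA, 1.88% (132 of 7015) for copies with 1 of these letters, and 5.61% (49 of 874, 95% exact interval 4.18 to 7.34) for copies with both. Among the 214 members with the palindrome, 45 had both letters, 111 had 1 and 58 had neither. The median fold enrichment of replicate 2 was 8.66, 7.66 and 6.9 in these groups, and that of replicate 1 was 6.11, 5.97 and 5.65.

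The distance between summit and palindrome was measured in members already chosen for a palindrome in the central 300 bp. Short distances were therefore partly fixed by that choice, and no background was computed. From the centre of the region, the median distance to the nearest palindrome was 64 bp (n = 214). The distance from the summit to the centre of the nearest palindrome had a median of 47.5, 51 and 50.5 bp in replicates 1, 2 and 3 (n = 192, 139 and 20). Of the summits, 87%, 74.8% and 70% lay within 75 bp, and 26.6%, 20.1% and 30% within 25 bp. Summits stood on both sides of the word, with the palindrome on the higher-coordinate side in 84 and on the lower-coordinate side in 104 of the members in replicate 1.

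**Figure D2:**
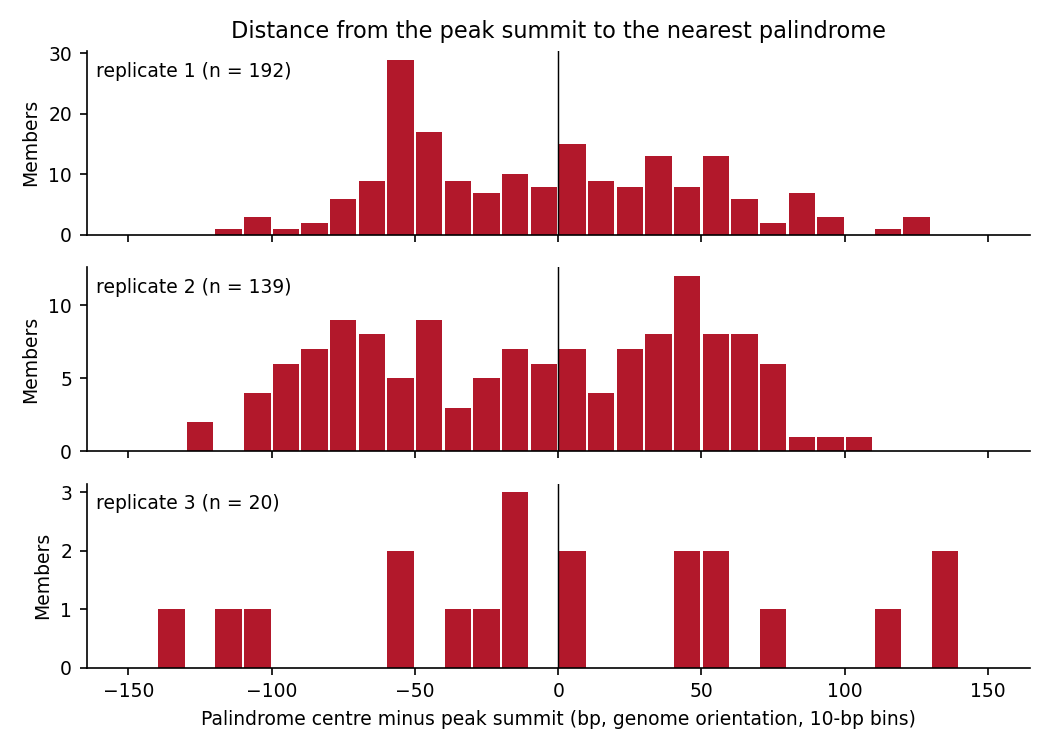
Number of members (y axis) by the distance in bp from the peak summit to the centre of the nearest palindrome (x axis, 10-bp bins), for each HA replicate. In replicates 1 and 2 most summits lie within 75 bp, and the highest bins lie 40 to 60 bp from 0.

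Members were recovered unevenly by the replicates. Replicate 1 had a peak in 367 members (77.3%), replicate 2 in 362 (76.2%) and replicate 3 in 154 (32.4%). Over all merged HA regions the shares were 71.9%, 83.8% and 78.9%, and for intragenic regions near H3K4me3 they were 70.9%, 84.5% and 86.9%. Replicate 3 was therefore lower at members while it was the highest near H3K4me3. Intergenic regions away from H3K4me3 had a peak of replicate 3 in 39.2%, so that the lower share was also seen outside genes. A peak of every replicate was found in 97 members (20.4%, 95% exact interval 16.9 to 24.3), against 52.3% of all merged HA regions. The largest group, 178 members, had a peak in replicates 1 and 2 and not in 3, and 10 members had a peak in no replicate, since the merged list had been called on the pooled reads. A missing peak means that the authors' threshold was not reached, not that the signal was 0.

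The palindrome was unevenly spread over these patterns. It was present in 67 of 87 members with a peak in replicate 1 alone (77%), in 108 of 178 with peaks in replicates 1 and 2 (60.7%), in 17 of 97 with peaks in all 3 (17.5%) and in 2 of 41 with peaks in replicates 2 and 3 (4.88%). Conversely, the 214 members with the palindrome had a peak in replicates 1, 2 and 3 in 89.7%, 65% and 9.35%, and the 261 members without it in 67%, 85.4% and 51.3%. The replicates could not be told apart by culture, batch or date from the labels, and their part in this difference was not tested.

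**Figure D3:**
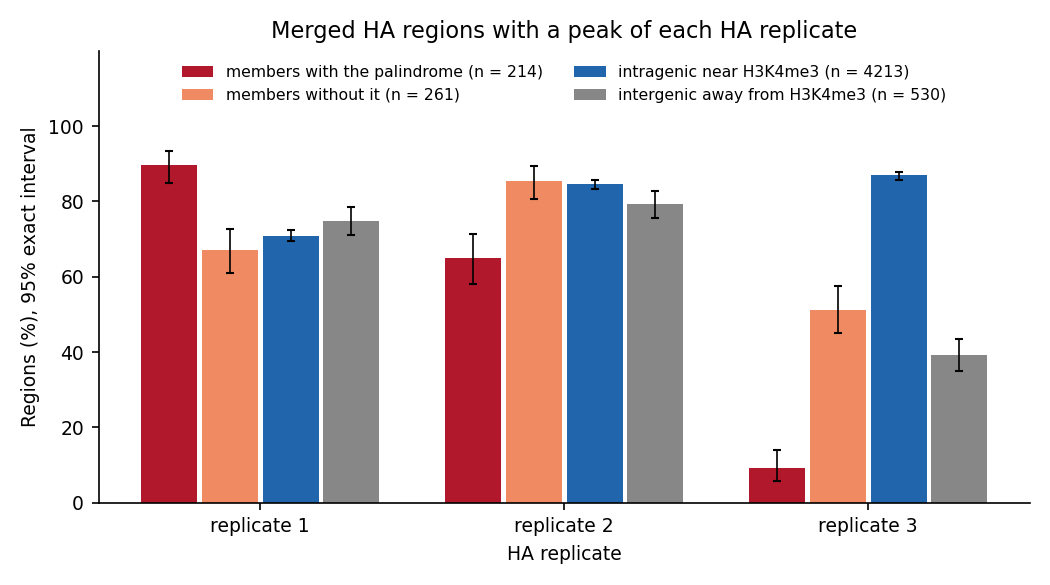
Share of regions with a peak of each HA replicate (y axis, percent, bars with 95% exact intervals that cover counting error only) for members with and without the palindrome and for 2 other classes of merged HA regions (x axis, replicate). Members with the palindrome stand at 89.7% in replicate 1 and at 9.35% in replicate 3, where intragenic regions near H3K4me3 stand at 86.9%.

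The replicates' own lists, which were called separately, were searched in the same way. They are not independent of the merged list, which was called on their pooled reads and in which the word was found. Of the peaks of each list whose summit lay in a protein coding gene and that lay at least 1 kb from H3K4me3, the palindrome was within 150 bp of the summit in 284 of 611 for replicate 1 (46.5%), 236 of 1146 for replicate 2 (20.6%) and 56 of 628 for replicate 3 (8.92%). Intragenic peaks near H3K4me3 held it in 2.21%, 1.63% and 0.792%. Intergenic peaks away from H3K4me3 held it in 44.8%, 22.1% and 8.38%. The share was thus higher away from H3K4me3 in each of the 3 lists, including that of replicate 3. Of the 611, 1146 and 628 peaks, 479, 520 and 261 lay in merged regions, so these shares are a description. Peaks with the palindrome away from H3K4me3 inside genes had a median fold enrichment of 5.24, 6.43 and 4.3, and those without it of 4.62, 4.45 and 4.15.

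Median fold enrichment was compared among regions with a peak, which is to say above the threshold of each replicate's peak call. The medians over members with a peak were 5.24, 6.43 and 4.44 in replicates 1, 2 and 3, against 5.09, 6.12 and 5.26 in intragenic regions near H3K4me3. The log2 ratio of the medians was 0.04, 0.07 and -0.24 in the 3 replicates, with a mean of -0.04 ± 0.17 (SD, n = 3). Replicate 3 set the sign, since the mean without it was 0.06. Among regions with a peak of every replicate the mean was -0.16 ± 0.15 (SD, n = 3). Against intergenic regions away from H3K4me3 the mean log2 ratio was 0.00 ± 0.02 (SD, n = 3). Fold enrichment is the value on which peaks were called, and replicate 3 called 154 members, so these medians are a description and carry no test. They do not show that enrichment was alike over all members. Fold enrichments of members in replicates 1 and 2 ran together across 275 shared members (Spearman's rho 0.72), while rho was 0.24 across the 102 shared by replicates 1 and 3 and 0.30 across the 138 shared by replicates 2 and 3. These points share the control and the pooled call, and they carry no p-value. For intragenic regions near H3K4me3 the same coefficients were 0.72, 0.58 and 0.59.

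Members with the palindrome had the higher median fold enrichment in replicates 1 and 2, which follows in part from how the word was found, by comparing strong with weak regions. Their medians were 5.94, 7.66 and 4.28, against 4.88, 5.84 and 4.54 without it, a log2 ratio of 0.28, 0.39 and -0.08. In members with peaks in both of the first replicates, the share with the palindrome was 25.9% (15 of 58) below a mean fold enrichment of 5, 55.6% (45 of 81) from 6 to 8 and 69.6% (32 of 46) from 8 to 12. In the highest class of 12 or more it was 68.4% (13 of 19). The median control background at their summits was 1.45, 1.93 and 1.6 fragments per base in replicates 1, 2 and 3, against 1.55, 1.86 and 1.74 in members without the palindrome.

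**Figure D4:**
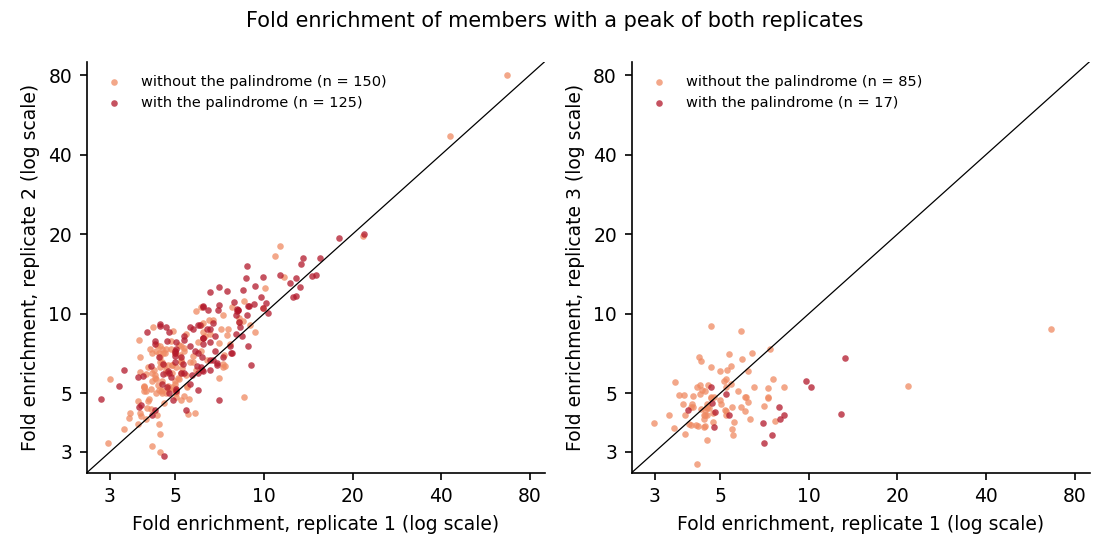
Fold enrichment of members with a peak of both replicates named on the axes (log scales), replicate 2 against 1 on the left and replicate 3 against 1 on the right, with a line of equal values. On the left 125 members with and 150 without the palindrome lie along the line, and on the right 17 and 85 remain, with fold enrichments in replicate 3 of at most 8.95.

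Members differed in width according to the palindrome. The median width was 198 bp (quartiles 171 and 283) with it and 448 bp (213 and 1394) without it. Only 1 of the 214 members with the palindrome was wider than 1 kb, against 85 of the 261 without it. The 300 bp searched cover only a part of wide regions, and 21 of the 261 held the palindrome elsewhere in the region. The difference in width therefore follows in part from the window. In the replicates' own lists the median peak width was 204, 364 and 198 bp with the palindrome and 259, 682 and 387 bp without it. The narrowest peaks at members were 148, 281 and 149 bp wide in replicates 1, 2 and 3, so widths are not alike between replicates. Merged regions lay at least 4032 bp apart, so wide members may join several neighbouring peaks. Taking all members together, replicate peaks were narrower than in intragenic regions near H3K4me3 by a mean log2 ratio of -0.28 ± 0.14 (SD, n = 3). This difference was 0.03 when regions with the palindrome were left out of both classes. Among regions with a peak of every replicate it was -0.01 ± 0.37 (SD, n = 3), so that the narrower width was not seen there. The control background of members was lower by a mean log2 ratio of -0.26 ± 0.19 (SD, n = 3), and by -0.13 ± 0.12 among regions with a peak of every replicate. Widths and backgrounds were read only from peaks above the threshold of the calls that chose the regions. These ratios are therefore a description and carry no test.

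The base composition of members was unlike that of promoters. The median GC content was 54.9%, against 68.1% in intragenic regions near H3K4me3 and 40.7% in tiles of gene spans. It was 53.1% in members with and 57.1% in members without the palindrome. The ratio of observed to expected CpG in the central 300 bp had a median of 0.243, against 0.84 near H3K4me3, where CpG islands are common. Intergenic regions away from H3K4me3 were similar to members, with a median GC content of 53.3% and a CpG ratio of 0.228.

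Other transcription factor words were searched on both strands of the same 300 bp. The AP-1 words TGACTCA and TGAGTCA were found in 53 members (11.2%, 95% exact interval 8.47 to 14.3), beside 3.72% of all merged HA regions, 2.44% of intragenic regions near H3K4me3 and 4.48% of gene tiles. Intergenic regions away from H3K4me3 held them in 9.06%, so the share was not particular to members. AP-1 words were in 16.5% of members without the palindrome and in 4.67% of those with it. The GC box GGGCGG of SP and KLF factors was found in 15.8% of members and 66.1% of intragenic regions near H3K4me3, and 5% of tiles held it. The ETS word CCGGAAG was in 1.26% of members and 15.4% near H3K4me3, and the NRF1 word in 0.211% and 7.17%. TEAD (GGAATG) words were in 16.2% of members and 15.3% of tiles, RUNX (TGTGGTT) words in 5.26% and 5.59%, and the CTCF core in 3.16% and 0.528%. The hypoxia response word ACGTG, which the E-box CACGTG contains, was in 18.3% of members and 12% of tiles, and the E-box in 5.26% and 2.93%. The YY1 word was in 1.47% and 1.26%, and the telomeric repeat, 2 copies of TTAGGG in tandem, in none of the 475 members.

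Within genes, members lay mainly in introns. Their centre was in an intron in 364 (76.6%), a 3′ UTR in 45 (9.47%), a coding exon in 40 (8.42%), another exon in 14 (2.95%) and a 5′ UTR in 12 (2.53%). Any exon held 23.4% (95% exact interval 19.6 to 27.4), against 8.33% of the bases of gene spans. The share differed with the palindrome, at 10.3% of members with it and 34.1% of members without it, and it was 39.2% among the 97 members with a peak of every replicate. The median member lay 0.607 of the way from the start to the end of its host gene, 0.51 with the palindrome and 0.663 without it, and the host genes had a median length of 84659 bp, 128520 and 56797 bp respectively. The distance from H3K4me3 that the rule demands limits positions near active starts.

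**Figure D5:**
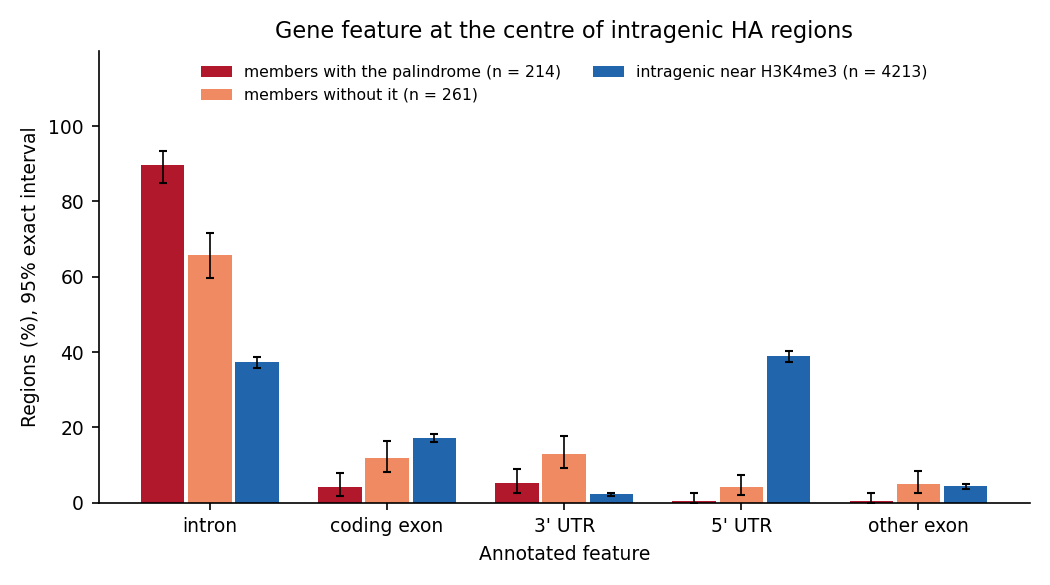
Share of intragenic merged HA regions (y axis, percent, bars with 95% exact intervals) by the feature at their centre (x axis) for members with and without the palindrome and for regions near H3K4me3. Introns hold 89.7% of members with the palindrome and 65.9% of those without it, and 5′ UTRs hold 38.9% of the regions near H3K4me3.

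Starts of transcripts were near a minority of members. An annotated transcript start of any kind lay within 1 kb of the centre in 93 members (19.6%), in 10.3% of those with and 27.2% of those without the palindrome, and in 94.8% of intragenic regions near H3K4me3. The start of the host gene had a merged HA region within 1 kb in 181 members (38.1%), beside 28.3% of all 20098 protein coding genes. In 162 members (34.1%) a region other than a member stood there. H3K4me3 marked the host start in 66.1% of members in ProMMP2-3xHA cells and 71.8% in WT cells, against 57.2% and 61.1% of all protein coding genes. The median distance from a member to the nearest H3K4me3 region was 18813 bp, 26506 bp with the palindrome and 15717 bp without it, and 63 members lay closer than 5 kb.

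Among the members with a peak of every replicate, HIF3A stood apart. This gene encodes an alpha subunit of the hypoxia-inducible factors, and the member lay in intron 1 of 15 exons (chr19:46802173-46802685), 47042 bp from H3K4me3. Its fold enrichment was 66.7, 79.7 and 8.75 in replicates 1, 2 and 3, higher in each of the first 2 than at any other merged HA region. Neither cell line had H3K4me3 at the start of the gene. The second highest mean was in intron 4 of ST3GAL3, a sialyltransferase gene (chr1:44300530-44302549), with 21.7, 19.7 and 5.34. In both, replicate 3 was several times lower than the others.

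The same order held in most of the other members with the highest means. TCP10L (3′ UTR, outside the canonical transcript) had 13.3, 12.6 and 6.78, and JRK (3′ UTR) had 12.9, 13.7 and 4.18. FBXO44, a substrate receptor of a ubiquitin ligase, had 9.78, 11.6 and 5.56 in intron 2. SPEF2, a sperm flagellum gene, had 7.91, 11.1 and 4.44 in intron 23, and SEC22A, a vesicle trafficking gene, had 7.49, 12.2 and 3.47 in its 3′ UTR. CPNE3, which encodes the calcium-dependent phospholipid-binding protein copine 3, had 7.04, 12.6 and 3.25 in intron 4. CIRBP, a cold-inducible RNA-binding protein, had 8.25, 9.62 and 5.26 at a region outside its canonical transcript. All of these but HIF3A, CIRBP and ST3GAL3 held the palindrome in the central 300 bp, and in ST3GAL3 it lay 24 bp from the summit of replicate 1 within a region of 2020 bp.

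Members ranked by their lowest replicate were of another kind. Beside HIF3A, TCP10L and FBXO44, the 10 highest were ACP4 (coding exon, 6.41, 6.67 and 7.11), MROH6 (coding exon, 7.39, 6.33 and 7.36), TPPP, PMEPA1, GGCX, RRM2 and ANTXR1. GGCX, the vitamin K-dependent carboxylase, had 5.89, 6.11 and 8.6 in its 3′ UTR (chr2:85773245-85773887). RRM2, a subunit of ribonucleotide reductase, had 7.53, 8.76 and 5.67 at a region outside its canonical transcript. ANTXR1, an anthrax toxin receptor, had 5.45, 8.36 and 6.33 in intron 14. None of these 7 held the palindrome at its centre, and in ACP4 and GGCX replicate 3 was the highest of the 3.

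The strongest members without a peak of replicate 3 lay mostly in introns, as did 76.6% of all members. SELENBP1, a selenium-binding protein gene, had a fold enrichment of 42.8 and 47.2 in intron 1 (chr1:151344231-151344740), from 352 and 335 fragments at the summit. ANKRD33B had 21.9 and 20 in intron 1 (chr5:10601342-10601819), from 466 and 390 fragments. SH3PXD2B, an adaptor of podosomes, the cell protrusions that degrade matrix, had 18 and 19.4 in intron 1 (chr5:171864529-171864781), and TRERF1 had 15.5 and 16.3 in intron 13. These were named after their values were seen. With HA coverage of 4.23 fragments per base in replicate 3, members that reached its list had at least 24 fragments at the summit.

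The widest members were in 4 genes. PMEPA1, a transmembrane regulator of TGF-beta signalling, held regions of 13731 bp in intron 1 (5.95, 7.8 and 6.73) and 11116 bp over its last exon (5.9, 10.2 and 4.44). DGAT1, an enzyme of triglyceride synthesis, held 8461 bp (5.15, 5.68 and 5.55), TPPP, a tubulin-binding protein, 6068 bp (6.21, 9.2 and 6.09) and DUS1L, a tRNA dihydrouridine synthase-like gene, 6028 bp (4.3 and 5.01, with no peak of replicate 3). None held the palindrome at the centre.

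The 475 members fell in 440 host genes, which is 2.19% of the protein coding genes, and 409 of these held 1 member. Only PMEPA1, PRKCA, SH3PXD2A and SLC39A11 held 3. In PRKCA, a protein kinase C gene, the member in intron 8 with the palindrome had 8.74 and 9.9 in replicates 1 and 2 and no peak of replicate 3, and a member in intron 3 without it had 5.45, 5.84 and 5.4. SH3PXD2A, the paralog of SH3PXD2B, held 3 narrow members in introns 2 and 3, of which 2 had the palindrome. SLC39A11, a zinc transporter gene, held 3 members in intron 7, none with the palindrome.

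By gene group, counts were small, and over all protein coding genes 2.19% were hosts. Of 18 genes of the hypoxia pathway, 6 were hosts (ADM2, CA12, EGLN3, EPAS1, HIF3A and NDRG1), with 7 members of which 3 held the palindrome. Of 45 cytoskeletal genes, 9 were hosts of 13 members (LMNA, LPP, MYH9, PLEC, SH3PXD2A, SH3PXD2B, TLN2, TNS3 and TUBA1C), 7 with the palindrome. Hosts were 4 of 44 collagen genes (COL13A1, COL20A1, COL6A2 and COL9A3), 4 of 37 matrix glycoprotein genes (IGFBP5, LTBP2, SPARC and TGFBI), 3 of 42 integrin and laminin genes (ITGA10 and ITGB2 among them) and 2 of 71 metalloproteinase genes (ADAMTS17 and ADAMTS20). Among genes of translation, 4 of 80 ribosomal protein genes (RPL28, RPS14, RPS19 and RPS23) and 1 of 68 translation factor genes (EEF1A1) were hosts, and their 6 members had no palindrome. Zinc finger genes gave 9 of 589 and hosts of small RNAs 3 of 15 (HUWE1, RPL28 and VMP1). Cathepsin genes, a list apart from that of lysosome genes, gave 1 of 15 (CTSB). No host was found among 82 heat shock and chaperone, 21 glycolysis, 55 keratin, 22 immediate early and AP-1 and 24 other lysosome genes. At the share over all genes, lists of these sizes would hold few hosts or none, so the absences say little about the members. Group sizes and gene lengths differ, and no group was tested. Hosts were assigned by gene span, so some members, such as that of EEF1A1, lay outside the canonical transcript.

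Examples from these groups were mixed. SH3PXD2B (2 copies) and ZBTB16 (2 copies, 10.3 and 10.1) had no peak of replicate 3, as did ADAMTS20 (1 copy, 5.36 and 8.22). EEF1A1, a translation elongation factor, had 5.27, 6.24 and 6.12 without the palindrome, at a region outside its canonical transcript. RPL28, a ribosomal protein, had 4.45, 7.58 and 5.11. COL9A3 (6.57 and 8.36, outside its canonical transcript), ITGB2 (9.34 and 8.5) and LTBP2 (7.25 and 6.46) had neither the palindrome nor a peak of replicate 3. HUWE1 (6.21, 1 copy) had a peak of replicate 1 alone. In CTSB, the lysosomal protease cathepsin B that the study examined, 1 member of 199 bp (chr8:11703166-11703364) lay in coding exon 9 of 10, 18813 bp from H3K4me3. Its fold enrichment was 4.76, 5.01 and 3.73, from 36, 33 and 24 fragments, and its window held 1 palindrome. The study describes a narrow peak at the CTSB start and a broad region in the gene body, the latter called from windows of signal. Here no merged HA region lay within 1 kb of the start of the gene span.

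Few regions lay close to the limit of 1 kb, since requiring only no overlap by 1 bp gave 491 members in place of 475. The members closest to H3K4me3 were in STAT6 (1036 bp; 6.21, 8.08 and 4.62), KSR2 (1081 bp; 4.26 in replicate 1 alone), CIRBP (1202 bp), SYNGR2 (1393 bp; 4.01, 4.41 and 4.56) and CORO1B (1440 bp; 3.9 and 4.84 in replicates 2 and 3). Just outside the rule were regions in PARP10 (837 bp; 3.02 in replicate 2), ADAP1 (690 bp; 8.86 in replicate 1), CRYBG2 (683 bp; 6.93 in replicate 1), LRRC8A (614 bp; 4.73 and 3.87 in replicates 2 and 3) and LSP1 (606 bp; 4.54 in replicate 1). ADAP1 and CRYBG2 held the palindrome.

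Members were found on all 23 chromosomes used. Per 100 protein coding genes there were 5.78 members on chromosome 22, 4.37 on chromosome 21 and 0.345 on chromosome X, where 3 members lay in 869 genes.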

How the data were processed

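Native ChIP-Seq peak lists of 5 samples and 1 merged list were used. The authors trimmed reads with Trim Galore 0.6.0, aligned them as pairs to hg19 (GRCh37) with Bowtie2 2.3.5.1, filtered them with SAMtools 1.9, removed duplicates with Picard and called peaks with MACS2 3.0.0a6 at a q-value of 0.05. Replicates were called separately in narrow mode. The merged HA and both H3K4me3 lists are positions of combined narrow and broad calls without a score. Each line of the replicate lists deposited by the authors holds a position, a score, a ratio (fold enrichment over the control background at the summit) and −log10 p- and q-values.

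Here, lines that share an interval were counted as 1 peak, and each merged region took the peak with the highest fold enrichment of each replicate. Genes came from GENCODE 44 on GRCh37. The host was the shortest gene whose canonical transcript covers the centre, or else the shortest span. In the latter case the centre lies outside the canonical transcript. The score was not used. Fragments and control background were recovered from the fold enrichment and Poisson p-value for 95.1%, 98.5% and 96.3% of summits at HA to control depth ratios of 3.57, 2.81 and 3. On 2000 simulated summits at a ratio of 3, 98.7% were resolved and 100% of those were right. The simulation was given its ratio, which was fitted in the data. Its backgrounds and fragments stayed below the highest in the data, where recovery was not tested. Replicate values are given as mean log2 ratios of medians with their SD, without a test. Shares carry 95% exact intervals by Clopper and Pearson, for counting error alone. No test over regions was made, since regions are not replicates. The distance search was checked against bedtools 2.31.1, which gave the same 1005 regions away from H3K4me3. Python 3.11.15, numpy 2.4.6, scipy 1.17.1 and pysam 0.24.0 were used.

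The members and lists were chosen with earlier results of these data known, and the palindrome was found after the sequences of members had been compared. The named regions are the 10 members with the highest mean and the 10 with the highest lowest fold enrichment among those with a peak of every replicate, the 5 widest, hosts with at least 3 members, CTSB, the 5 regions on either side of the 1 kb limit and the strongest member of each gene group, and 1 region and 1 host gene that fall under these rules or counts are not reported here. The alternatives were other distances from H3K4me3, other gene sets, q of 0.01 or less, other windows, regions with a peak of every replicate and leaving out each replicate. Among these, splits by the palindrome and all alternatives for the palindrome were added after the data were seen.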

Additional observations from a re-analysis of the deposited data

How the results depend on the processing

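Of 43 settings added after the data were seen, 20 kept the value of their result within its spread, interval or direction, and of the 61 others 43 did. The number of members was 491 and 412 with no overlap by 1 bp and with 5 kb in place of 1 kb, 540 with the ProMMP2-3xHA H3K4me3 list alone, 492 with any overlap of a gene span and 412 with canonical transcripts. The share found in every replicate was 15.2% with peaks at q of 0.01 or less and 7.79% with at least 50% of the region covered in each replicate, and it ranged from 21.5% to 57.9% when 1 replicate was left out, the highest value being without replicate 3.

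The mean log2 ratios of fold enrichment changed sign between settings. Against regions near H3K4me3, leaving out 1 replicate gave -0.10 to 0.06, and only regions with a peak of every replicate gave -0.16. Against intergenic regions away from H3K4me3 it gave -0.01 to 0.01, no overlap by 1 bp gave -0.01 and only regions with a peak of every replicate gave -0.06. The ratio of peak widths was 0.03 without regions that hold the palindrome and -0.01 in regions with a peak of every replicate.

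With 5 kb in place of 1 kb, the GC content was 54.4% and the share in exons 19.2%. In members with a peak of every replicate, 39.2% lay in exons, 30.9% near a transcript start and 53.6% in genes whose start had HA, their median position was 0.656 and 17.5% held the palindrome. A limit of 500 bp gave 12.8% near a transcript start, the whole region gave 16.6% with an AP-1 word, and the central 300 bp gave a GC content of 54%.

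Members with the palindrome had a GC content of 53.1%, exons in 10.3%, starts in 10.3%, a position of 0.51 and AP-1 words in 4.67%, and members without it 57.1%, 34.1%, 27.2%, 0.663 and 16.5%. Members with a peak of replicate 2 had a GC content of 55.5% and a position of 0.649, and those with a peak of replicate 3 had exons in 36.4%, starts in 26%, HA at the host start in 50.6% and a position of 0.657. The palindrome was in 52.3%, 38.4% and 13% of members with a peak of replicates 1, 2 and 3, in 12.2% when only the central 100 bp was searched, and in 62.9% when 1 arm letter could differ. The causes of these differences were not tested. No paired analysis was possible because the labelled groups share 1 replicate number, and the ratios compare classes of regions within each of the 3 HA replicates.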

Other observations

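The palindrome was also present in 208 of the intergenic HA regions away from H3K4me3. The 208 intergenic regions that held it had a median width of 206 bp and a GC content of 51.8%, and the 322 that lacked it had 369 bp and 54.2%. A peak of replicate 1 was found in 192 of the 208, of replicate 2 in 142 and of replicate 3 in 37 (17.8%), beside 9.35% of members with the palindrome for replicate 3, a difference that was not tested. Their median fold enrichment was 5.85, 7.53 and 4.34 in the 3 replicates.

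The 46 intragenic regions near H3K4me3 that held the palindrome were recovered by replicate 3 more often than members with it, at 25 of 46 against 20 of 214. Their median fold enrichment was 6.22, 6.9 and 6 in replicates 1, 2 and 3, and their GC content was 67.5%. Inside gene spans, 145 of 925 palindromes within 1 kb of H3K4me3 lay in a merged HA region (15.7%), against 277 of 20934 (1.32%) farther away. Merged HA regions are far more common near H3K4me3, so these 2 shares have different backgrounds.

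At the 7 members that held the palindrome and had a peak in no replicate, the deposited values give no fold enrichment, since the pooled call alone found them.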
